A study of Mus musculus with 70 samples.

Results

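The comparison described here sets 10 dorsal hippocampus libraries of mice that ran and then rested (14-14-0) against 10 libraries of sedentary mice (0-0-0), 20 of the 70 libraries of the series. The members were chosen by their exercise parameters and by the OLM label, and no measured value entered the choice. The 14-14-0 mice had a running wheel for 14 days of voluntary exercise and then lived without it through a sedentary delay of 14 days, with 0 days of reactivating exercise. The sedentary mice lived in a standard cage throughout. All 20 were adult male C57BL/6J mice, housed singly, and no allele or drug was named for either group. Both groups were given a 3-min subthreshold acquisition session of the object location memory (OLM) task, in which a mouse explores objects whose places it may later recall, and bilateral dorsal hippocampi were taken 1 h later. Each group had 5 libraries from each of 2 harvest cohorts. The series holds 7 groups of 10 libraries in all, among them home cage mice without OLM, 14-0-0 mice that had no delay, and 14-7-0 mice with a delay of 7 days. The comparison asks which transcripts still differ when the rest is as long as the run.

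The choroid plexus is a folded epithelium that lies in the ventricles next to the hippocampus and secretes cerebrospinal fluid. Its cells make transthyretin (Ttr), a carrier of thyroid hormone and retinol, in very large amounts, together with the folate receptor Folr1 and klotho (Kl), so that a small piece left on a dissected hippocampus is visible in its RNA. Immediate early genes such as Fos, Egr1, Arc and Npas4 are transcribed within minutes of neuronal firing, and new experience raises them in the hippocampus. Activity reaches many of them through the factor CREB, which binds the short sequence TGACG.

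Expression was given as FPKM, read fragments scaled to transcript length and to the mapped total, for 24346 genes. Tests covered the 12994 genes that averaged 1 FPKM or more across all 70 libraries, on log2(FPKM + 0.1), a scale on which the changes of genes with low FPKM are understated. Differences are 14-14-0 minus sedentary, tested with limma's moderated test (two-sided), and a call means an unadjusted p below 0.05, up-regulated where 14-14-0 was higher. Between 55 and 84 of the tested genes were listed at 0 FPKM in each of these 20 libraries. The library sedentary replicate 6, of harvest cohort 2, stood apart. It held 17.1 FPKM of the glutamate transporter Slc17a7 and 2.45 FPKM of the pyramidal neuron factor Neurod6, against at least 367 and 78.4 FPKM in each of the other 69 libraries. The summed level of the 12 thalamus and habenula genes was 397 FPKM in that library and 44.2 to 58.6 FPKM in the other 9 sedentary libraries, and that of 12 dentate granule cell genes was 74.1 against 121 to 289 FPKM. The main counts and many single results are also given without it.

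Across the 20 libraries 415 genes were up-regulated (3.19% of those tested) and 228 down-regulated (1.75%). None passed Benjamini-Hochberg adjustment in limma, where the smallest adjusted p was 0.974. The 643 calls were 4.95% of the genes tested, about as many as a threshold of p under 0.05 gives on average where no gene differs. By Cyber-T, a related moderated test, the counts were 367 and 118. Among the up-regulated genes were 33 of the 34 further choroid plexus genes and 11 of the 19 meningeal genes tested, and among the 5 down-regulated genes of smallest p were the immediate early genes Npas4, Fos and Egr1. Without sedentary replicate 6 the counts were 589 and 317. Without 14-14-0 replicate 1 or replicate 3 the number of up-regulated genes fell to 247 and 270. The number of down-regulated genes was 121 without sedentary replicate 0, 119 without 14-14-0 replicate 1 and 144 without 14-14-0 replicate 5, and 448 and 378 without sedentary replicates 3 and 9. Up-regulated genes made 64.5% of the calls, and 80.6% after median ratio scaling. The 10 libraries of harvest cohort 1 by themselves gave 460 and 140 such calls, and those of cohort 2 gave 118 and 147.

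Among the gene lists, those of the choroid plexus had the largest median differences in the fit of 20 libraries. Ttr ranged from 15.5 to 344 FPKM in the sedentary libraries, with a median of 74.4, and from 32.2 to 21244 FPKM in 14-14-0, with a median of 2040 (log2 fold change 3.57, SE 1.24, p = 0.00919). The 14-14-0 libraries lay in separate ranges: replicates 0, 1, 3, 5 and 7 held 9906, 21244, 11592, 3902 and 6419 FPKM, whereas replicates 2, 4, 6, 8 and 9 held 179, 56.1, 58.0, 45.0 and 32.2 FPKM. The first 5 lay above every sedentary library and the other 5 lay within the sedentary range. Of these 5 libraries with Ttr above 1000 FPKM, 3 belonged to harvest cohort 1 and 2 to cohort 2.

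The other members of the score divided the same libraries. Folr1 ranged from 21.8 to 104 FPKM in the 5 libraries and from 0.524 to 1.28 FPKM in the other 5, against 0.198 to 3.16 in sedentary (log2 fold change 2.39, SE 0.93, p = 0.0188). Kl, whose protein is an anti-ageing co-receptor for a fibroblast growth factor, ranged from 36.4 to 157 FPKM and from 6.52 to 9.18 FPKM, against 1.97 to 10.7 in sedentary (1.75, SE 0.54, p = 0.00436). For both genes the 5 libraries lay above all sedentary libraries and the rest overlapped them. In bulk tissue, more cells of a type and more RNA per cell cannot be told apart. Libraries with Ttr above 1000 FPKM also occurred in 14-0-0 (5 of 10), home cage (3), 0-0-2 (2), 14-7-0 (1) and 14-7-2 (1), and in 0 of the 10 sedentary libraries. Their relation to running was not tested. Set directly against 14-7-0, Ttr was higher in 14-14-0 (log2 fold change 2.90, p = 0.0356, and p = 0.0508 without 14-7-0 replicate 4, in which 390 tested genes were at 0 FPKM), in a comparison where 6.44% of genes were called in either direction. Against 14-0-0 the difference was -0.24 (p = 0.88), with 7.16% of genes called.

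**Figure D1:**
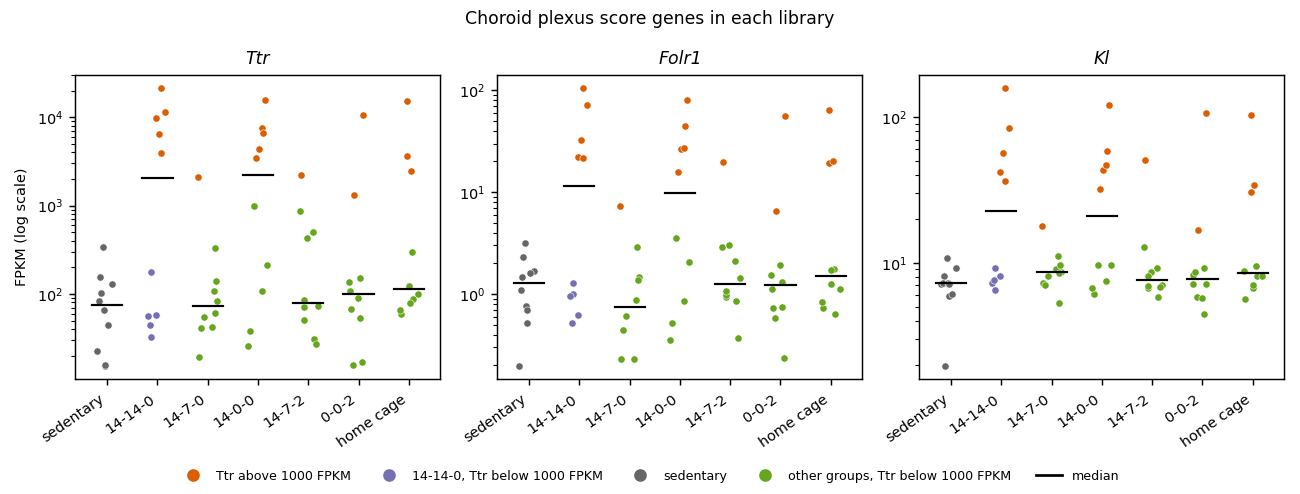
FPKM of Ttr, Folr1 and Kl (log axis) in each of the 70 libraries by group, 1 point per library, with a black line at the group median; Folr1 at 0 in 1 library of 14-7-0 cannot be drawn on this axis. In each panel 5 of the 10 libraries of 14-14-0 (orange) lie above all 10 sedentary libraries, and the other 5 lie within the sedentary range.

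The rest of the choroid plexus epithelium list moved with these genes. Of its 40 genes 34 were tested and 33 were up-regulated, with a median log2 difference of 1.90, beside -0.01 over all genes tested. The summed level of the list was 155 to 392 FPKM in sedentary, 1128 to 4659 FPKM in the 5 libraries with high Ttr and 178 to 266 FPKM in the other 5 of 14-14-0. The sodium bicarbonate transporter Slc4a5 ranged from 0.0315 to 0.529 FPKM in sedentary (median 0.101) and from 0.053 to 32.2 FPKM in 14-14-0 (median 3.42; log2 fold change 2.86, SE 0.95, p = 0.00702). Col8a1, a short-chain collagen, ranged from 0.0847 to 0.435 FPKM and from 0.0844 to 20.1 FPKM (2.52, SE 0.76, p = 0.00331). The sulfate transporter Slc13a4 ranged from 0.342 to 2.81 FPKM and from 0.641 to 34.2 FPKM (1.90, SE 0.62, p = 0.00585). For all 3 genes the 5 libraries with high Ttr lay above every sedentary library, and the overlap came from libraries with low Ttr. Abca4, Wfdc2 and Tmem72 rose by 2.14, 2.84 and 2.77 on the log2 scale (p = 0.00569, 0.00605 and 0.00663). None of the 34 genes was called with the score described next, where their median was 0.07. That score is built from genes of the same tissue, and 33 of the 34 had r of at least 0.5 with it in the other 50 libraries. The loss of these calls was therefore largely fixed in advance. Together the genes of both choroid plexus lists made 0.0446% to 0.168% of the FPKM of a sedentary library and 1.24% to 6.20% of that of the 5 libraries.

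To separate choroid plexus content from other changes, the libraries were examined in 3 ways. The first and second used a score, the mean log2 level of Ttr, Folr1 and Kl in each library, and the last used Ttr alone. First, each gene's correlation with the score was taken over the 50 libraries of the other 5 groups, centred within group, so that neither 14-14-0 nor sedentary entered it. There, 692 genes had r of at least 0.5 (5.33%) and 1026 had r of at most -0.5 (7.90%), with 3 genes for which no r could be computed. Of the 415 up-regulated genes, 279 (67.2%) had r of at least 0.5, and their median r was 0.651 beside -0.0166 over all genes. Of the 228 down-regulated genes, 42 (18.4%) had r of at most -0.5, and their median r was -0.355. The points of these correlations share their libraries, and a higher share of FPKM for the choroid plexus lowers the FPKM of every other gene, so r is a description.

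**Figure D2:**
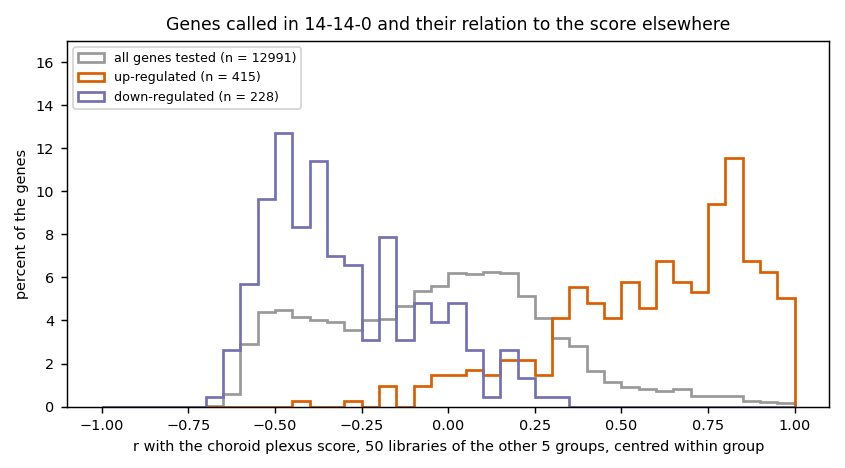
Percent of genes (vertical axis) by their correlation with the choroid plexus score over the 50 libraries of the other 5 groups (horizontal axis, bins of equal width), for all genes tested, the 415 up-regulated and the 228 down-regulated genes. The up-regulated genes are shifted to high r, with a median of 0.651, and the down-regulated genes to low r, with a median of -0.355.

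Second, the score was put into the fit of the 20 libraries as a covariate. Leaving out the genes of both choroid plexus lists, 34 genes were then up-regulated (0.262%) and 82 down-regulated (0.633%), and none passed adjustment in limma (smallest adjusted p = 1). Over all genes tested the calls of this fit were 116 (0.893%), fewer than a threshold of p under 0.05 gives on average where no gene differs. Of the genes called without the score, 10 of 415 up-regulated and 38 of 228 down-regulated genes were called again in the same direction. The count of up-regulated genes was 63 without sedentary replicate 4, and that of down-regulated genes was 128 without that library, 54 without 14-14-0 replicate 6 and 191 without 14-14-0 replicate 9. Up-regulated genes made 29.3% of these calls, and 56.4% with median ratio scaling. Last, the 5 libraries with Ttr above 1000 FPKM were left out, a choice made after the values were seen. The 5 other 14-14-0 libraries differed from sedentary in 23 up-regulated (0.177%) and 69 down-regulated genes (0.531%), of which 8 and 37 were among the 415 and the 228. Without sedentary replicate 6 as well, the counts were 37 and 69. These calls, too, were fewer than the threshold gives on average where no gene differs. The 7 up-regulated and 29 down-regulated genes called in all 3 fits share the sedentary libraries, so these calls are not independent of each other. A call kept in all 3 fits therefore does not by itself show a change.

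**Figure D3:**
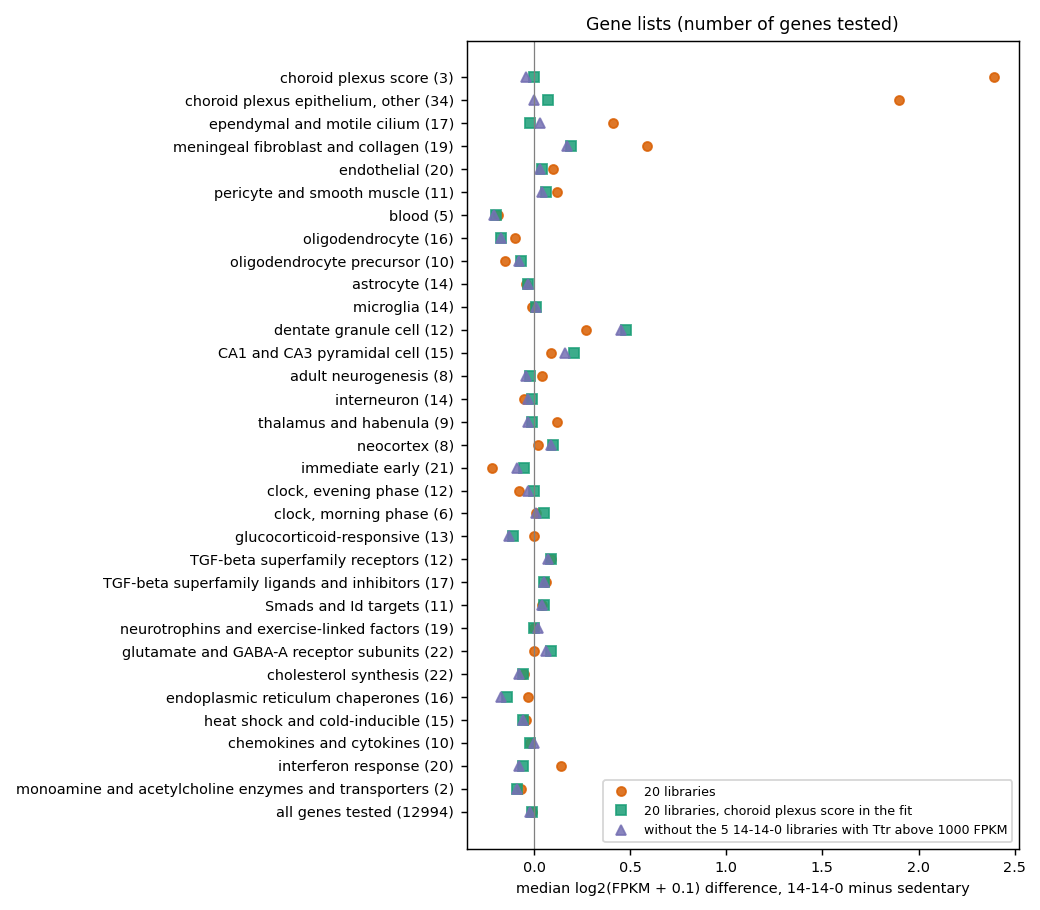
Median log2(FPKM + 0.1) difference of each gene list, 14-14-0 minus sedentary (horizontal axis), with the number of genes tested in brackets, in the fit of 20 libraries (circles), with the choroid plexus score in the fit (squares) and without the 5 libraries with Ttr above 1000 FPKM (triangles). The other choroid plexus genes stand at 1.90 in the first of these fits and at 0.07 with the score, which is built from genes of the same tissue. The immediate early genes stand at -0.22, -0.05 and -0.09. Without sedentary replicate 6 (not drawn) their medians were -0.29, -0.13 and -0.17.

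Of 17 genes tested in the list of ependymal cells, which line the ventricles and bear motile cilia, 2 were up-regulated (Mia and Pifo), with a median of 0.41. Without sedentary replicate 6, whose summed level of the list was 272 FPKM, 10 were up-regulated, with a median of 0.69. With the score the count was 0 (median -0.02). The sums were 37.1 to 107 FPKM in the other 9 sedentary libraries, 75 to 254 FPKM in the 5 libraries with high Ttr and 55.5 to 108 FPKM in the other 5 of 14-14-0. Mia and Pifo were not called in 9 and 11 of the 20 fits that left out a library.

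Genes of the meninges and of extracellular matrix were also examined. Of 19 genes tested in the list of meningeal fibroblasts and collagens 11 were up-regulated, with a median of 0.59. Without sedentary replicate 6 the count was 7, and with the score or without the 5 libraries it was 0 (median 0.19 and 0.17). The summed level of the list was 98.4 to 232 FPKM in sedentary, 256 to 442 in the 5 libraries and 110 to 200 in the other 5. Pcolce, an enhancer of procollagen processing, ranged from 1.29 to 3.62 FPKM in sedentary (median 2.18) and from 1.65 to 28.6 in 14-14-0 (median 7.60; log2 fold change 1.69, SE 0.48, p = 0.00197), with 6 of 10 libraries above every sedentary library. With the score its difference was 0.45 (p = 0.0997). The growth factor Igf2 ranged from 8.74 to 22.8 FPKM and from 8.88 to 198 FPKM (1.52, SE 0.49, p = 0.00563), and with the score it differed by 0.19 (p = 0.405). The type I collagen chain Col1a2 ranged from 0.688 to 3.21 FPKM and from 1.22 to 5.90 FPKM (0.83, SE 0.29, p = 0.00885), and with the score by 0.37 (p = 0.222). All 5 libraries with high Ttr lay above every sedentary library for these 3 genes.

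Most vessel genes were not called. Of 20 endothelial genes 4 were up-regulated (median 0.10), and of 11 pericyte and smooth muscle genes 3 (median 0.12), beside 3.19% of all genes tested and a median of -0.01. Without sedentary replicate 6 the counts were 3 and 2. None of either list was called with the score. Ocln, a tight junction protein, ranged from 4.81 to 7.53 FPKM in sedentary and from 6.36 to 12.9 in 14-14-0 (0.36, SE 0.13, p = 0.0115), with the 5 libraries again above all sedentary ones. Abcc9, a potassium channel subunit of pericytes, ranged from 1.07 to 1.61 FPKM and from 1.40 to 1.96 FPKM (0.26, SE 0.08, p = 0.00369), with 7 of 10 libraries above every sedentary library. With the score Ocln differed by 0.09 (p = 0.415) and Abcc9 by 0.16 (p = 0.0751). Npr1, the receptor of atrial natriuretic peptide, ranged from 0.982 to 2.06 FPKM and from 1.78 to 4.28 FPKM (0.56, SE 0.15, p = 0.00127). All 10 libraries of 14-14-0 lay above the sedentary median of 1.52 FPKM, and 4 lay above every sedentary library. With the score the difference was 0.27 (p = 0.0622, and p = 0.0981 without sedentary replicate 6), and without the 5 libraries it was 0.27 (p = 0.0488). The scavenger receptor Colec12 and the organic anion transporter Slc22a8 rose by 0.48 (p = 0.00149) and 0.34 (p = 0.00271), and with the score their differences were 0.21 (p = 0.0776) and 0.13 (p = 0.134).

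Some members of the TGF-beta superfamily, whose ligands signal through paired type I and type II receptors, were higher. Of 12 receptors tested 2 were up-regulated, and of 17 ligands and inhibitors 3 (Sostdc1, Bmp6 and Bmp7), beside 3.19% of all genes tested. None was called once the score was in the fit, and Bmp7 was not called in 10 of the 20 fits that left out a library. The type II receptor Tgfbr2 ranged from 3.98 to 5.20 FPKM in sedentary (median 4.70) and from 4.18 to 8.23 in 14-14-0 (median 6.04; log2 fold change 0.36, SE 0.10, p = 0.00209). Tgfbr3, a co-receptor that presents ligand, ranged from 1.58 to 3.44 FPKM and from 2.98 to 10.8 FPKM (0.65, SE 0.19, p = 0.00241). Without sedentary replicate 6, which held its lowest sedentary value, the difference was 0.56 (p = 0.00457). In both genes 8 of 10 libraries of 14-14-0 lay above every sedentary library. With the score in the fit the differences were 0.13 (p = 0.114) and 0.27 (p = 0.116), and in the other 50 libraries their r with the score was 0.632 and 0.750. The bone morphogenetic protein Bmp6 and Sostdc1, an inhibitor of such ligands, rose by 0.91 (p = 0.0146) and 1.85 (p = 0.00895), and their r was 0.876 and 0.916. Sostdc1 also served as a marker of choroid plexus epithelium. Acvr1c, a type I receptor of the family, ranged from 1.30 to 4.64 FPKM in sedentary (median 3.76) and from 2.08 to 4.59 FPKM in 14-14-0 (median 3.64), and the groups overlapped throughout. Its difference of 0.12 (SE 0.20, p = 0.533) became -0.02 without sedentary replicate 6 and 0.28 with the score (p = 0.239). Set directly against 14-0-0, Acvr1c was lower in 14-14-0 by a log2 difference of -0.42 (p = 0.00363), and Bdnf by -0.42 (p = 0.000319). In that comparison 7.16% of genes were called and none passed adjustment in limma (smallest adjusted p = 0.0579). In the study both genes were among those up-regulated, in these same libraries, only in 14-0-0 and 14-7-2. That choice itself favours a lower level in 14-14-0, so these p-values are not independent support. Against 14-7-0 the differences were -0.13 for Acvr1c (p = 0.348) and -0.17 for Bdnf (p = 0.0648).

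H2-Aa and Ccl19 were among the 4 up-regulated genes of smallest p. H2-Aa, the alpha chain of an MHC class II molecule, ranged from 0.146 to 1.12 FPKM in sedentary (median 0.494) and from 0.396 to 5.84 in 14-14-0 (median 2.24; log2 fold change 1.60, SE 0.44, p = 0.00155). The 5 libraries with high Ttr held 2.92 to 5.84 FPKM and the other 5 held 0.396 to 1.55. With the score the difference was 0.50 (p = 0.0818), and r in the other 50 libraries was 0.669. Of 10 chemokines and cytokines tested 2 were up-regulated (median -0.02), and the same 2 were called with the score and without the 5 libraries. Ccl19, which guides lymphocytes and dendritic cells through the receptor CCR7, had the smallest p of all. It ranged from 0.725 to 1.72 FPKM in sedentary (median 1.2) and from 1.43 to 2.47 in 14-14-0 (median 1.80; log2 fold change 0.67, SE 0.14, p = 0.000141), and all 10 libraries lay above the sedentary median. The difference was 0.66 with the score (p = 0.0013), 0.58 without the 5 libraries (p = 0.00646), and 0.55 and 0.79 within harvest cohorts 1 and 2. Ccl19 (chr4:42754525-42756365, mm10) has near-identical pseudogenes, and reads that matched several places were removed by the authors, so its level is uncertain. In home cage mice it ranged from 0.737 to 2.42 FPKM, overlapping both groups. Ccl28, an epithelial chemokine, ranged from 0.789 to 1.90 FPKM and from 1.24 to 2.50 FPKM (0.36, SE 0.15, p = 0.0295). Its highest values lay in libraries with low Ttr, and it was not called without sedentary replicate 0, sedentary replicate 6, 14-14-0 replicate 2 or 14-14-0 replicate 8, where p lay between 0.0563 and 0.0608. With the score Ccl28 differed by 0.42 (p = 0.0375, and p = 0.0614 without sedentary replicate 6) and was called in 12 of the 20 fits that left out a library.

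Fos and Npas4 are shown by the 250 bases before a transcription start, that of the first promoter entry of each gene. H2-Aa is shown as a gene of another kind that holds the same letters. The first 2 were chosen because CREB links the immediate early genes to activity. The sequences are RefSeq promoters of GRCm38.p6, 5′ to 3′ on the strand of the gene: Fos at chr12:85473640-85473889 (plus strand), Npas4 at chr19:4989972-4990221 (minus strand) and H2-Aa at chr17:34287824-34288073 (minus strand). The Npas4 window lies within the annotated gene (chr19:4984353-5003439), so it does not precede the outermost annotated start. Capitals mark TGACG or its reverse complement CGTCA, overlapping matches joined.
Fos: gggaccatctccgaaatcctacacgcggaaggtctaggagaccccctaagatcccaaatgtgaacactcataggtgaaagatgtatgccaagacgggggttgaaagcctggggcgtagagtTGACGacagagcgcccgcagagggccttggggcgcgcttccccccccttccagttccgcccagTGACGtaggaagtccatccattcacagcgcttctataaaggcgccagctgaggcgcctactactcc
Npas4: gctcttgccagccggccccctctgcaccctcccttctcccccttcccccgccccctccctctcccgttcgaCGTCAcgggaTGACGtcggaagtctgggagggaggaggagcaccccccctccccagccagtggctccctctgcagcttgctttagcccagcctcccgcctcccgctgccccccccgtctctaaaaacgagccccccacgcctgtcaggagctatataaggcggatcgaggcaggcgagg
H2-Aa: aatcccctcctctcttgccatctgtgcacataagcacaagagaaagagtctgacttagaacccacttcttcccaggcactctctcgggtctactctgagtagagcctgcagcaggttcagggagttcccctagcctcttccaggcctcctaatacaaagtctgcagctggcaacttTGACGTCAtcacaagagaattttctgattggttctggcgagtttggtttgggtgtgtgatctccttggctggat
Each of the 3 windows holds 2 matches, and those of H2-Aa form the palindrome TGACGTCA. On either strand TGACG was found in 17.8% of 32851 promoters of this length and in 27.6% of 9814 promoters of tested genes, and in 11 of the 16 immediate early genes with a promoter entry. A match describes the letters and does not show binding.

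Of 21 immediate early genes tested 5 were down-regulated in 14-14-0 (Npas4, Fos, Egr1, Arc and Fosb), beside 1.75% of all genes tested. Of the rest, 0 were up-regulated and 16 were not called, and the median of the list was -0.22. Without sedentary replicate 6 the count was 9 and the median -0.29. Also without that library, the median was -0.13 with the score and -0.17 without the 5 libraries with high Ttr, with 1 gene called in each. Fos, a subunit of the factor AP-1, ranged from 3.22 to 16.3 FPKM in sedentary (median 6.10) and from 2.46 to 5.18 in 14-14-0 (median 3.69; log2 fold change -0.91, SE 0.27, p = 0.00263). All 10 libraries of 14-14-0 lay below the sedentary median, and 4 lay below every sedentary library. Npas4, a factor induced by calcium entry, ranged from 1.22 to 5.15 FPKM (median 2.25) and from 0.865 to 2.80 FPKM (median 1.36; -0.80, SE 0.23, p = 0.0022), with 9 of 10 libraries below the sedentary median. Egr1, a zinc finger factor, ranged from 45.9 to 99.7 FPKM (median 69.4) and from 41.6 to 61.2 FPKM (median 48.8; -0.47, SE 0.14, p = 0.00266). Arc, which acts at synapses, ranged from 20.9 to 109 FPKM (median 46.9) and from 20.9 to 45.1 FPKM (median 26.9; -0.72, SE 0.28, p = 0.018). The upper part of the sedentary range was empty in 14-14-0 for all 4 genes, and the lower parts overlapped. Within harvest cohorts 1 and 2 the differences were -0.56 and -1.26 for Fos, -0.63 and -0.97 for Npas4, -0.40 and -0.54 for Egr1, and -0.55 and -0.89 for Arc. None of the 4 was called in cohort 1 (p = 0.154, 0.0528, 0.0659 and 0.169), and all 4 were called in cohort 2 (p = 0.00126, 0.0171, 0.00749 and 0.0464).

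The level of these genes was also read beside the score. Fos lay between 2.46 and 3.50 FPKM in the 5 libraries with high Ttr and between 3.87 and 5.18 FPKM in the other 5. Arc lay between 20.9 and 28.4 FPKM and between 21.0 and 45.1 FPKM. With the score in the fit the differences were -0.64 for Npas4 (p = 0.0285), -0.55 for Fos (p = 0.0694), -0.31 for Egr1 (p = 0.0574) and -0.43 for Arc (p = 0.194), and 1 of the 21 genes, Npas4, was called. Without the 5 libraries the values were -0.69 (p = 0.0365), -0.62 (p = 0.0962), -0.35 (p = 0.0738) and -0.51 (p = 0.197). The direction held for all 4 genes and the call for Npas4, which with the score was called in 15 of the 20 fits that left out a library (p up to 0.104). The part of choroid plexus content in these differences was not tested. Fosb, with a difference of -0.43 (p = 0.0435, and p = 0.0829 without sedentary replicate 6), was called in 10 of the 20 fits without the score that left out a library. The home cage mice, which had no OLM, ranged from 2.53 to 9.86 FPKM for Fos (median 6.27) and from 1.63 to 2.93 FPKM for Npas4 (median 1.97), with medians above those of 14-14-0. The sedentary medians of Fos (6.10 FPKM) and Arc (46.9) lay below those of home cage (6.27 and 54.2). For Npas4 (2.25) and Egr1 (69.4) the sedentary medians lay above those of home cage (1.97 and 53.6). Against 14-7-0 and 14-0-0, Fos differed by -0.17 (p = 0.286) and -0.06 (p = 0.782) and Npas4 by -0.20 (p = 0.299) and -0.20 (p = 0.262). In 14-7-2 and 0-0-2 the medians of Fos were 3.32 and 4.36 FPKM, beside 3.69 in 14-14-0. Those of Npas4 were 1.76 and 1.64 FPKM, beside 1.36.

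Bdnf, a neurotrophin whose transcription also follows activity, ranged from 1.18 to 22.9 FPKM in sedentary (median 20.7) and from 12.4 to 20.1 FPKM in 14-14-0 (median 18.2). All 10 libraries of 14-14-0 lay below the sedentary median, yet the fitted difference was 0.21 (SE 0.38, p = 0.587). The lowest sedentary value was that of replicate 6, and the next lowest was 14.4 FPKM. Without that library the difference was -0.19 (p = 0.0624).

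**Figure D4:**
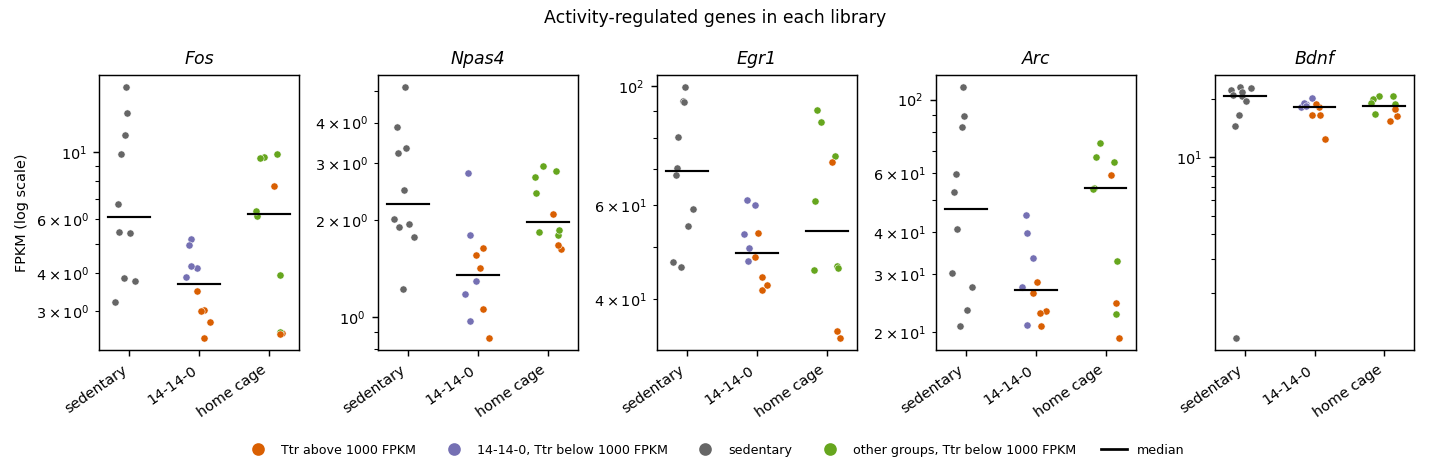
FPKM (log axis) of Fos, Npas4, Egr1, Arc and Bdnf in each library of sedentary, 14-14-0 and home cage mice, 1 point per library, with a black line at the median; orange points are libraries with Ttr above 1000 FPKM. All 10 libraries of 14-14-0 lie below the sedentary median for Fos, Egr1, Arc and Bdnf, and the lowest sedentary point of Bdnf, 1.18 FPKM, is replicate 6.

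Other down-regulated genes showed small differences. Cckbr, the brain receptor of cholecystokinin, ranged from 2.48 to 5.37 FPKM in sedentary (median 3.43) and from 1.91 to 3.17 in 14-14-0 (median 2.60; log2 fold change -0.44, SE 0.13, p = 0.00381), with all 10 libraries below the sedentary median. It was called with the score (-0.35, p = 0.041) and without the 5 libraries (-0.38, p = 0.0426). Without sedentary replicate 6 neither call held (p = 0.0542 and 0.0557), and with the score Cckbr was called in 11 of the 20 fits that left out a library (p up to 0.125). Sars, the seryl-tRNA synthetase, ranged from 42.9 to 50.8 FPKM and from 37.6 to 45.6 FPKM (-0.14, SE 0.05, p = 0.00537), with 7 of 10 libraries below every sedentary library. Ebna1bp2, a ribosome assembly protein, ranged from 14.6 to 17.7 FPKM and from 13.6 to 16.0 FPKM (-0.16, SE 0.04, p = 0.00179), with 6 of 10 below. Both were called with the score (p = 0.027 and 0.0141), in 17 and 19 of the 20 fits that left out a library. The secreted glycoprotein Stc2 fell by 0.38 on the log2 scale (p = 0.00417), and 8 of 10 libraries lay below all sedentary ones. It was not called with the score (-0.24, p = 0.081) and was called without the 5 libraries (-0.26, p = 0.0329). Single genes of the cell type lists were also lower, namely Lhx6 of interneurons (-0.24, p = 0.0147), Neu4 of oligodendrocyte precursors (-0.20, p = 0.0127) and the astrocyte enzyme Aldoc (-0.19, p = 0.034, and p = 0.0564 without sedentary replicate 6). Each was the only call among 14, 10 and 14 genes tested, beside 1.75% of all genes tested. With the score none of these 3 was called (-0.17, -0.16 and -0.13, p = 0.123, 0.0884 and 0.188).

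Because the fit with the score gave fewer calls than its threshold gives by chance, the genes named from it are described and not shown to differ. With the score in the fit, the leading down-regulated gene was Snapc5, a subunit of the complex that starts small nuclear RNA genes. It ranged from 17.6 to 29.5 FPKM in sedentary (median 24.3) and from 16.1 to 26.0 in 14-14-0 (median 19.8), with a difference of -0.25 (SE 0.09, p = 0.014) and of -0.36 with the score (p = 0.00238). The histone deacetylase Hdac8 ranged from 6.66 to 8.96 FPKM and from 6.32 to 7.65 FPKM, and differed by -0.19 (p = 0.00546) and by -0.22 with the score (p = 0.00925). Tra2a, a splicing regulator, ranged from 32.5 to 46.0 FPKM and from 28.4 to 37.0 FPKM, and differed by -0.22 (p = 0.00636) and -0.24 (p = 0.0126). The groups overlapped for all 3 genes, with 8 to 10 libraries of 14-14-0 below the sedentary median. Trip10, an adaptor of membrane and actin, differed by 0.06 (p = 0.73) and was called with the score (-0.32, p = 0.00962) and without the 5 libraries (-0.35, p = 0.00574). It lay between 2.84 and 5.06 FPKM in the 5 libraries, between 1.63 and 2.28 FPKM in the other 5 and between 2.12 and 3.04 FPKM in sedentary. Hmgn5, a nucleosome-binding protein, differed by -0.13 (p = 0.222) and by -0.33 with the score (p = 0.00374).

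Among up-regulated genes of the same fit, Frat1, which binds the kinase GSK3, ranged from 4.58 to 6.88 FPKM in sedentary (median 5.39) and from 4.50 to 7.67 in 14-14-0 (median 6.55), with 9 of 10 libraries above the sedentary median. It differed by 0.23 (SE 0.09, p = 0.0184) and by 0.30 with the score (p = 0.00999). Tmem219, a membrane receptor, ranged from 8.71 to 12.4 FPKM and from 10.7 to 12.8 FPKM, with all 10 libraries above the sedentary median of 9.83 (0.21, SE 0.06, p = 0.00287, and 0.20 with the score, p = 0.0182). Rn45s, the precursor of ribosomal RNA, which selection for poly(A) should largely remove and whose copies are repeated in the genome, differed by 0.71 (p = 0.0332) and 1.03 (p = 0.00958), and its level is uncertain. Mir1188, which lies within the long noncoding RNA Rian, was listed at 0 FPKM in 9 of 10 libraries of 14-14-0 and in 4 of 10 sedentary libraries, and is too short a feature for a fold change. Eif3j1, an initiation factor subunit named after its values were seen, ranged from 0.0601 to 11.9 FPKM in sedentary and from 0.0629 to 2.93 FPKM in 14-14-0, whereas its close copy Eif3j2 ranged from 8.61 to 26.1 and from 20.2 to 27.3 FPKM. In 14-7-2 and 0-0-2 the highest values of Eif3j1 were 26.7 and 31.1 FPKM, and the lowest of Eif3j2 were 0.0765 and 0.0646 FPKM. The study states that reads matching several places were removed. How reads shared by this pair entered the FPKM values was not tested, so neither gene is reported as a change.

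**Figure D5:**
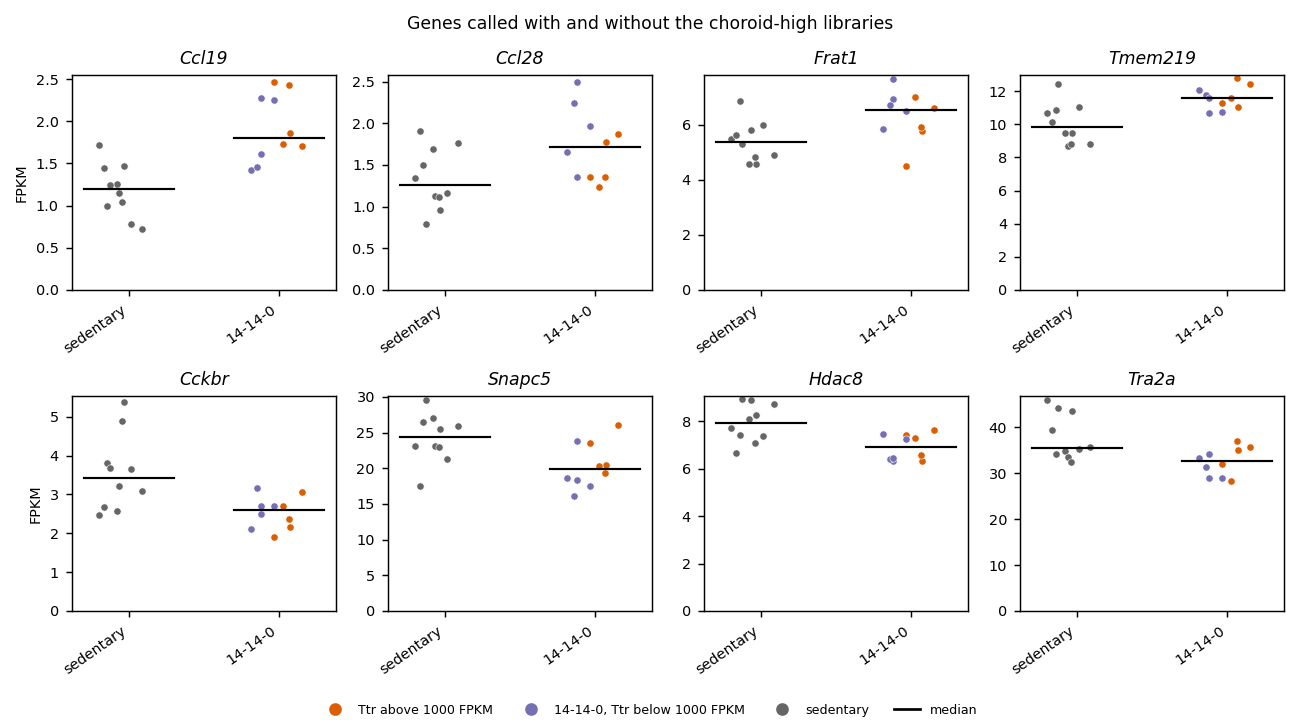
FPKM of 8 genes called in the fit of 20 libraries, with the choroid plexus score and without the 5 libraries of high Ttr, in each sedentary and 14-14-0 library (1 point per library, black line at the median, axes from 0). Ccl19, Ccl28, Frat1 and Tmem219 have higher medians in 14-14-0 and Cckbr, Snapc5, Hdac8 and Tra2a lower ones, and orange and purple points of 14-14-0 are mixed in most panels.

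The effect of 14-14-0 was also compared between the harvest cohorts. The interaction was called for 264 genes (2.03%) at an unadjusted p under 0.05 and for 0 after adjustment in limma (smallest adjusted p = 1). By smallest p the leading genes were Hscb, an iron-sulfur cluster chaperone (-0.33 in cohort 1 and 0.37 in cohort 2, p = 0.000489), the histone gene Hist3h2ba (-0.62 and 0.17, p = 0.000591) and Cutc (-0.24 and 0.25, p = 0.000883). Ttr differed by 4.65 and 2.48 in the cohorts, with p = 0.387 for the interaction, and Fos by -0.56 and -1.26, with p = 0.166.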

How the data were processed

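RNA from bilateral dorsal hippocampus was made into poly(A)-selected TruSeq libraries and sequenced as short single reads. The authors aligned the reads with ELAND and Bowtie, removed those matching several locations, and deposited FPKM values from the Tuxedo protocol (Cuffnorm and mm10 in the submitters' processing notes, versions not given in the sources used here). The FPKM table does not carry depth. The study's supplement gives read numbers by sequencing label, which the labels used here do not tie to samples, so these were not used and no intervals for counting error were made.

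Genes that averaged 1 FPKM or more across 70 libraries were tested on log2(FPKM + 0.1) with limma 3.58.1 in R 4.3.3 (moderated test with an intensity trend, no covariate, 20 libraries), and called at an unadjusted p under 0.05, the study's criterion. In a second fit the centred mean log2 of Ttr, Folr1 and Kl was a covariate. The 32 gene lists, the members and the rules were chosen with earlier results of these data known. Named genes were the 10 of smallest p in each direction of each fit (without choroid plexus genes in the second), called genes of the lists (at most 6 a list, or 2 of smallest p where none was called), the 3 score genes, Acvr1c, Bdnf and the 3 of smallest interaction p. The text names those that describe a group, and Slc17a7, Neurod6, Eif3j1 and Eif3j2 were named after their values were seen. Fits were tested on simulated data. Promoters and coordinates are RefSeq's (GRCm38.p6). Alternatives were a pseudocount of 1, minima of 0.1 and 5 FPKM or none, median ratio and quantile scaling, a joint fit, harvest cohort as covariate, each cohort alone, a replicate block, Cyber-T (rewritten, window 101, 10 prior degrees of freedom), p under 0.01 and leaving out each library. Figures used matplotlib 3.10.9.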

Additional observations from a re-analysis of the deposited data

Results flagged for a closer look

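Among the 10 libraries of a group, a single library stood apart by Dixon's 95% criterion (a gap over 0.466 of the range) in 20 of 126 sets of a gene and a group. The criterion flags about 1 in 20 independent, normally distributed sets. These sets share their libraries, hold chosen genes and were taken as FPKM without a log, so the count cannot be read against that rate. In 14-14-0, replicate 1, the library with most Ttr, was highest for Kl (157 FPKM), Slc4a5 (32.2), Abca4 (18.5), Slc13a4 (34.2), Sostdc1 (73.3), Tgfbr3 (10.8) and Mir1188 (54.5). Sedentary replicate 3 was highest for Ttr (344 FPKM), Slc4a5 (0.529), Wfdc2 (0.736), Tmem72 (0.296) and Rn45s (1168). Sedentary replicate 6 was lowest for Tgfbr3 (1.58 FPKM) and Bdnf (1.18) and highest for Bmp7 (5.0) and Las1l (22.7). In 14-14-0, Npas4 was highest in replicate 8 (2.80 FPKM), Rn45s in replicate 4 (3066) and Eif3j1 in replicate 5 (2.93), and Bdnf was lowest in replicate 3 (12.4 FPKM).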

How the results depend on the processing

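No gene passed adjustment in limma, so all counts rest on an unadjusted p. The 415 up-regulated genes became 710 with a minimum of 0.1 FPKM, 177 with 5 FPKM, 854 with no minimum, 118 in harvest cohort 2 alone, 88 at p under 0.01, and, as alternatives chosen after seeing the data, 23 without the 5 libraries high in Ttr and 37 without these and sedentary replicate 6. Leaving out 1 library gave 247 (14-14-0 replicate 1; 270 without replicate 3) to 589 (sedentary replicate 6). The 228 down-regulated genes became 354 with no minimum, 123 with median ratio scaling, 140 and 147 in harvest cohorts 1 and 2 alone, 118 by Cyber-T, 23 at p under 0.01, and 69 without the 5 libraries, with or without sedentary replicate 6. Leaving out 1 library gave 119 (14-14-0 replicate 1) to 448 (sedentary replicate 3). With the score, the 34 up-regulated genes became 81 and 18 with minima of 0.1 and 5 FPKM, 189 with no minimum, 62 with median ratio scaling, 72 in a joint fit of 7 groups, 53 in harvest cohort 2 alone, 57 with a score of the other choroid plexus genes and 5 at p under 0.01, and 29 to 63 without 1 library (63 without sedentary replicate 4). The 82 down-regulated genes became 126 with a minimum of 0.1 FPKM, 179 with no minimum, 48 with median ratio scaling or quantile normalization, 127 with the other score and 7 at p under 0.01, and 54 (without 14-14-0 replicate 6) to 191 (without 14-14-0 replicate 9) without 1 library. The 279 choroid-linked genes became 184 at r of 0.7. Beyond fewer libraries, fewer genes tested or a stricter threshold, the cause of these moves was not tested.

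With the replicate number as a block the counts were 452 and 463, and with the score 363 and 351. The numbers did not pair the libraries: the correlation of same-numbered deviations was -0.24 to 0.32, over 0.1 in 4 of 10 pairs, and 3 of 10 libraries correlated best with their own number. Acvr1c turned to -0.044 in harvest cohort 1 alone, and lay between -0.016 (without sedentary replicate 6) and 0.21 when 1 library was left out. Bdnf turned to -0.22 in that cohort, and lay between -0.19 (without sedentary replicate 6) and 0.28. Mir8108 with the score turned to -0.0695 in cohort 1 alone. None of these reversed values was called, and the cause was not tested. Over the genes named, the counts left out, 1685 values without the score and 593 with it kept their direction and their side of the threshold, and 231 and 41 lost the call with the same direction. The FPKM values do not carry the read depth, so no counting error is given.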

Other observations

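Neuronal layer genes gave no clear shift. Of 12 dentate granule cell genes 0 were called, and their median difference of 0.27 became 0.01 without sedentary replicate 6, with 1 gene then down-regulated. Of 15 CA1 and CA3 pyramidal cell genes 0 were called. Without that library their median went from 0.09 to -0.12, and 1 gene was down-regulated, as was 1 with the score. Their summed level was 561 to 603 FPKM in the 5 libraries with high Ttr and 593 to 650 FPKM in the other 5 of 14-14-0. In the other 9 sedentary libraries it was 575 to 797 FPKM. Oligodendrocyte genes (16 tested, median -0.10), microglial genes (14 tested, median -0.01) and the evening clock genes (12 tested, median -0.08) held 0 calls. Without sedentary replicate 6, 1 evening clock gene was down-regulated. The summed level of the thalamus and habenula list was 44.2 to 216 FPKM in the 5 14-14-0 libraries with high Ttr and 40.8 to 64.4 FPKM in the other 5.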
